A study of Homo sapiens with 6 samples.

Results

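The genes described here are 79 human genes whose names begin with KDM, HDAC, KAT, CHD, BRD, CBX or PHF followed by a digit. They were taken by name from 11805 genes that a list of intronic clusters names alone. A gene needed at least 1 cluster to enter, and 7 of the 86 protein-coding genes whose symbol fits the pattern had none under that name. The number of clusters and their balance between the lists were not used. Together they held 4188 of 366429 clusters recovered with wild-type Rbfox1 (1.14%, exact 95% interval 1.11 to 1.18%). They held 2156 of 188027 clusters recovered with Rbfox1 F125A (1.15%, 1.10 to 1.20%). A cluster is a stretch of genome covered by sequenced RNA.

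The RNA came from nuclease-treated complexes of Rbfox1, an RNA-binding splicing regulator, with LASR, an assembly of further splicing proteins. All groups used 1 Rbfox2 knockout line, KO#7, derived from HEK293 Flp-In, cells of human embryonic kidney origin that hold a docking site for transgenes. There were 3 libraries from cells with FLAG-Rbfox1(WT), 2 from cells with FLAG-Rbfox1(F125A), in which a phenylalanine of the RNA-binding domain is replaced by alanine, and 1 control library from cells with no transgene. Each Rbfox1 group had 1 list of clusters in introns of protein-coding genes (hg38), and the control library was not analysed here. The knockout and the line were common to all groups, so nothing here measures their part.

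Each value therefore has no replicate error, and its interval covers counting error only. Read depth is unknown, since a list gives places without the reads behind them. The WT list was the longer, with 1.95 clusters for each F125A cluster, and it rests on more libraries. A gene needs transcription to give a cluster, so more RNA of a gene and more binding per RNA cannot be told apart. Of the genes often seen in HEK293 cells, IRS4 had 48 WT and 74 F125A clusters and PAX2 13 and 8, NEFL and LHX1 had at most 2 in either list, and NEFM had none. The 8 genes checked for liver, blood and muscle had at most 1 cluster in either list.

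Histone tails carry methyl and acetyl groups that are written, removed and read by dedicated proteins. KDM enzymes take methyl groups off lysines, HDAC enzymes take acetyl groups off, and KAT enzymes put them on. CHD proteins move nucleosomes with the energy of ATP, and most of them carry chromodomains. BRD proteins bind acetylated lysine through a bromodomain, CBX proteins bind methylated lysine through a chromodomain, and many PHF proteins read histone tails through a PHD finger. The name does not always give the role. PHF5A is a subunit of the splicing factor SF3b, and BRD3OS is a gene beside BRD3 named for the opposite strand.

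The letters under a cluster could be read for a few places, where a cluster lay wholly within the 250 bases before an annotated RefSeq gene start (GRCh38.p14). The authors' lists place them in introns, and RefSeq places them before at least 1 annotated start on the same strand. Whether that start belongs to the same gene was not checked. The 79 genes had 13 such WT and 13 such F125A clusters. Most of them fell into the 13 places described here, 10 of which were found with both proteins. Not every cluster of either list lies in these places, so counts of places cover only part of the clusters. A place is the stretch covered by the overlapping WT and F125A clusters together. The 5 printed first are from these 10, and show which letters both proteins recovered. They are in both lists by choice, so their overlap is no result. Capitals mark the bases that lay in both a WT and an F125A cluster.

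BRD2, chr6:32970756-32970829, plus strand: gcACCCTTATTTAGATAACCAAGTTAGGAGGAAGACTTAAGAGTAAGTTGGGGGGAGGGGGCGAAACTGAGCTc
CBX1, chr17:48101204-48101289, minus strand: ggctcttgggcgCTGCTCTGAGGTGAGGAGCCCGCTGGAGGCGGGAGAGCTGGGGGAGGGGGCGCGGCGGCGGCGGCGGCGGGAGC
CHD4, chr12:6606524-6606558, minus strand: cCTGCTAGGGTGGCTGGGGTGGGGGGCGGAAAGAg
CHD9, chr16:53208341-53208401, plus strand: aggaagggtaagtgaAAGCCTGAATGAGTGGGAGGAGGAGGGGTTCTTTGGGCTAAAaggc
PHF23, chr17:7239008-7239106, minus strand: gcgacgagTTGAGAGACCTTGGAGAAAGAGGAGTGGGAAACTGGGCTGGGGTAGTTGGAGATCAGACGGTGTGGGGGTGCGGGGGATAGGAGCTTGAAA

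The next places were in 1 list only. The first is from the WT list and is the only 1 of the 13 places that held GCATG, the DNA letters of the pentamer that Rbfox proteins bind, here in capitals. The second is from the F125A list.

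BRD2, chr6:32971473-32971540, plus strand: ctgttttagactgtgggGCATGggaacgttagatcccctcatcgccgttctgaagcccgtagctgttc
KDM2B, chr12:121579746-121579812, minus strand: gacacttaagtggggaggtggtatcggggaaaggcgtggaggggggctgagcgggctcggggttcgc

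Over the 10 described places found in both lists, which were 35 to 99 nt long, the shared bases numbered 33 to 91. In CHD8 they were 39 of 67 nt and in PHF19 41 of 54 nt. A run of 4 or more G stood in 11 of the 13 places, 8 of them among the 10 shared ones. Over all genes, 557 WT and 482 F125A clusters lay in such windows, and GGGG stood in 77.2% of WT and 82.6% of F125A clusters (exact intervals 73.5 to 80.6% and 78.9 to 85.9%). Only the strand of the transcript was searched. Stretches of 65 bases were cut before all 34943 annotated RefSeq starts, whether or not a cluster lay there. They held GGGG in 31.9%, and the whole windows of 300 bases around these starts in 75.1%. These stretches and windows need not be intronic or transcribed. They are therefore no matched background for GGGG or GCATG, and enrichment in clusters was not tested. The pentamer GCATG stood in 1 of the 13 WT and none of the 13 F125A clusters of the 79 genes (7.69%, exact interval 0.19 to 36%, and 0 to 24.7%). Over all genes it stood in 9.34% of the WT clusters (7.05 to 12.1%) and 3.11% of the F125A clusters (1.75 to 5.08%), against 4.38% of the stretches of 65 bases and 19.6% of the windows of 300 bases. The intervals over all genes do not overlap, but those of the 79 genes span both values, so their own share was not determined at this number of places.

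Most of the 79 genes had clusters in both lists, in nearly the same order. Of the 79 genes, 76 had clusters in both lists and 3 in the WT list only: KDM4D, a demethylase, with 2, BRD3OS with 1 and KAT5, the TIP60 acetyltransferase, with 1. None of the 79 genes was found with F125A alone. Such genes do occur in the lists, for example AAMP with 0 WT and 2 F125A clusters. The share of all genes found in 1 list only was not worked out, so these counts have no background. Across the 79 genes, Spearman's rho between the numbers of clusters in the lists was 0.97, and gene length and the shared cell line enter both numbers. The 10 genes with most WT clusters held 42.5% of the 79 genes' WT clusters and 39.9% of their F125A clusters.

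**Figure D1:**
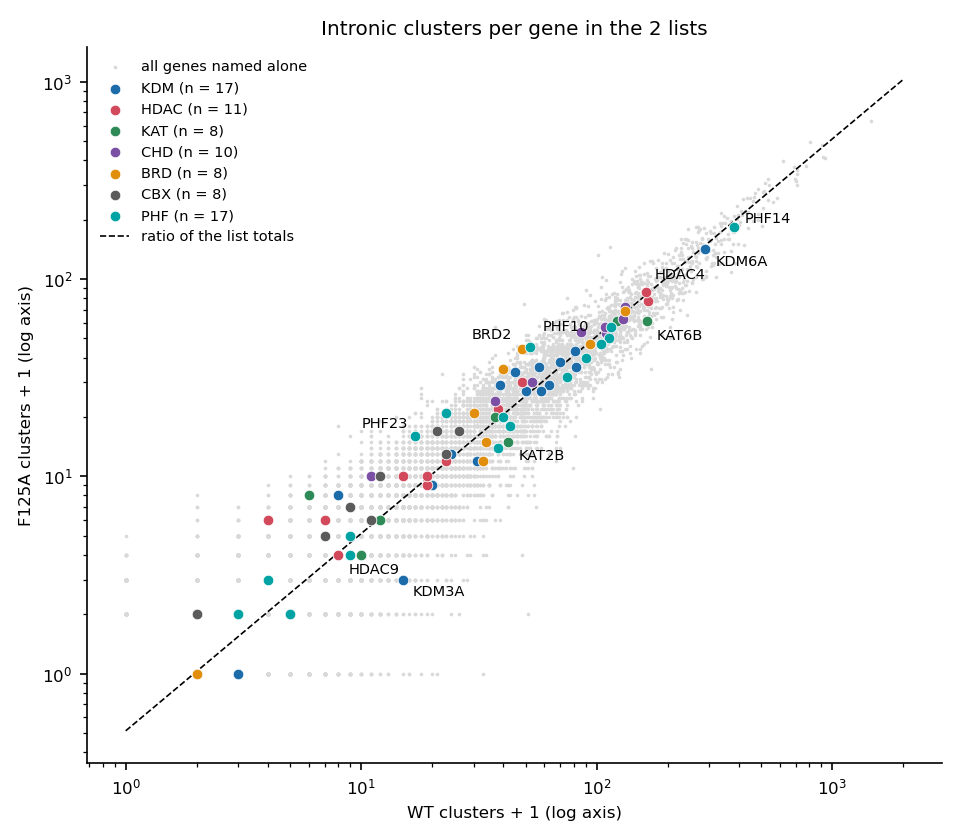
Clusters per gene in the WT list (horizontal) and the F125A list (vertical), 1 added to each, on log axes; coloured points are the 79 genes by family and grey points all genes named alone, and the dashed line is the ratio of the list totals. The coloured points lie along the dashed line up to PHF14 (381 WT and 182 F125A clusters), with BRD2 and PHF10 above it and KAT6B and KDM3A below it.

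PHF14, a PHD finger protein (chromosome 7, 10973872 to 11169618), had the most clusters of the 79 genes, 381 with WT and 182 with F125A. KDM6A, also known as UTX, which removes methyl groups from lysine 27 of histone H3 (chromosome X, 44873188 to 45112779), followed with 288 and 141. HDAC8, a class I deacetylase also on chromosome X, had 164 and 76. These 3 genes are long, at 196, 240 and 243 kb, and PHF14 stands out among them per length, with 195 WT and 93.0 F125A clusters per 100 kb of gene against 120 and 58.9 for KDM6A and 67.4 and 31.2 for HDAC8.

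Per length, the 79 genes had a median of 60.3 WT and 31.0 F125A clusters per 100 kb of gene, where all genes with a cluster had 34.8 and 17.9. Among genes with at least 20 clusters in the lists together, the medians were closer: 74.0 and 35.3 for 56 of the 79 genes, and 58.0 and 29.7 for all 5626 genes. The middle 50% of the 56 genes spanned 49 to 116 WT clusters per 100 kb and that of all 5626 genes 35.5 to 89.5, so the ranges overlap for most of their width. The highest density was that of BRD2, a bromodomain protein of the BET group and 12.9 kb long, with 364 WT and 333 F125A clusters per 100 kb. PHF23 (276 and 259), PHF10 (248 and 214), HDAC3 (232 and 132) and PHF14 followed. The first 4 of these genes are between 5.79 and 20.6 kb long. The lowest WT density was that of HDAC9, a class IIa deacetylase of 916 kb, with 0.76 and 0.33.

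**Figure D2:**
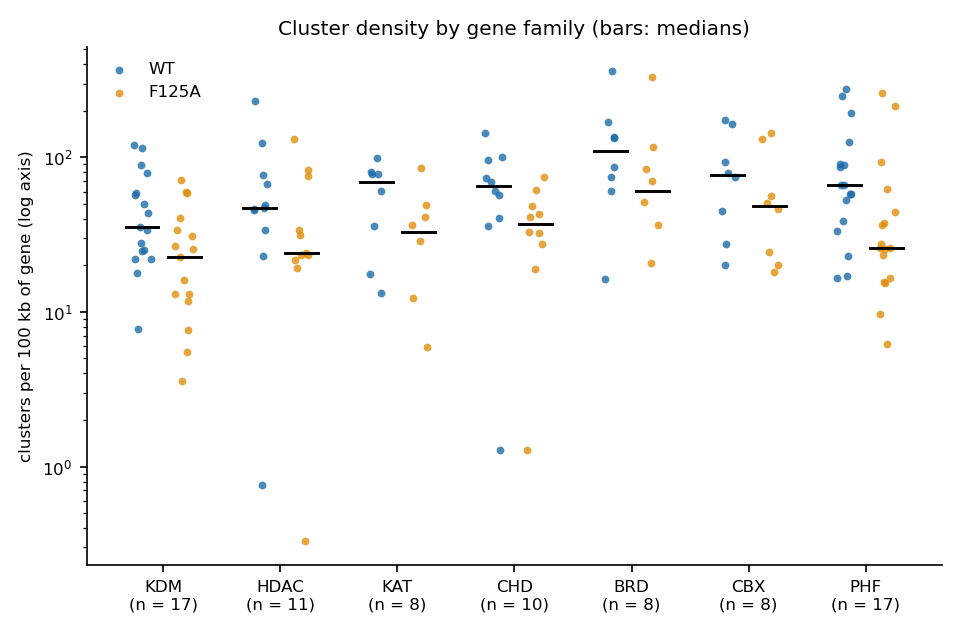
Clusters per 100 kb of annotated gene length for each gene, by family, in the WT list (blue) and the F125A list (orange), on a log axis with bars at the median of all genes of the family; genes at 0 in the F125A list (KDM4D, BRD3OS and KAT5) have no orange point. Medians of the WT list run from 35.6 in the KDM family to 110 in the BRD family, and the points of the families overlap.

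The ratio of WT to F125A clusters was compared for the 56 genes with at least 20 clusters. It is given as the log2 of WT clusters + 1 over F125A clusters + 1, less the log2 ratio of the list totals (0.96), so that 0 means the balance of the lists. The median over the 56 genes was -0.03 (interval of the median -0.08 to 0.07), beside -0.04 over all 5626 genes. Of the 56 genes, 26 lay above 0 and 30 below. None lay 2-fold or more toward WT, where 2.51% of all tested genes did, and none 2-fold or more toward F125A, where 1.99% did. Counts of 0 among 56 are near these small backgrounds.

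The counting interval of the ratio lay wholly above 0 in 1 gene, KAT6B (background 5.85% of all tested genes), and wholly below 0 in 3 genes, BRD2, BRD9 and PHF10 (background 4.37%). Neither count stands apart from its background.

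**Figure D3:**
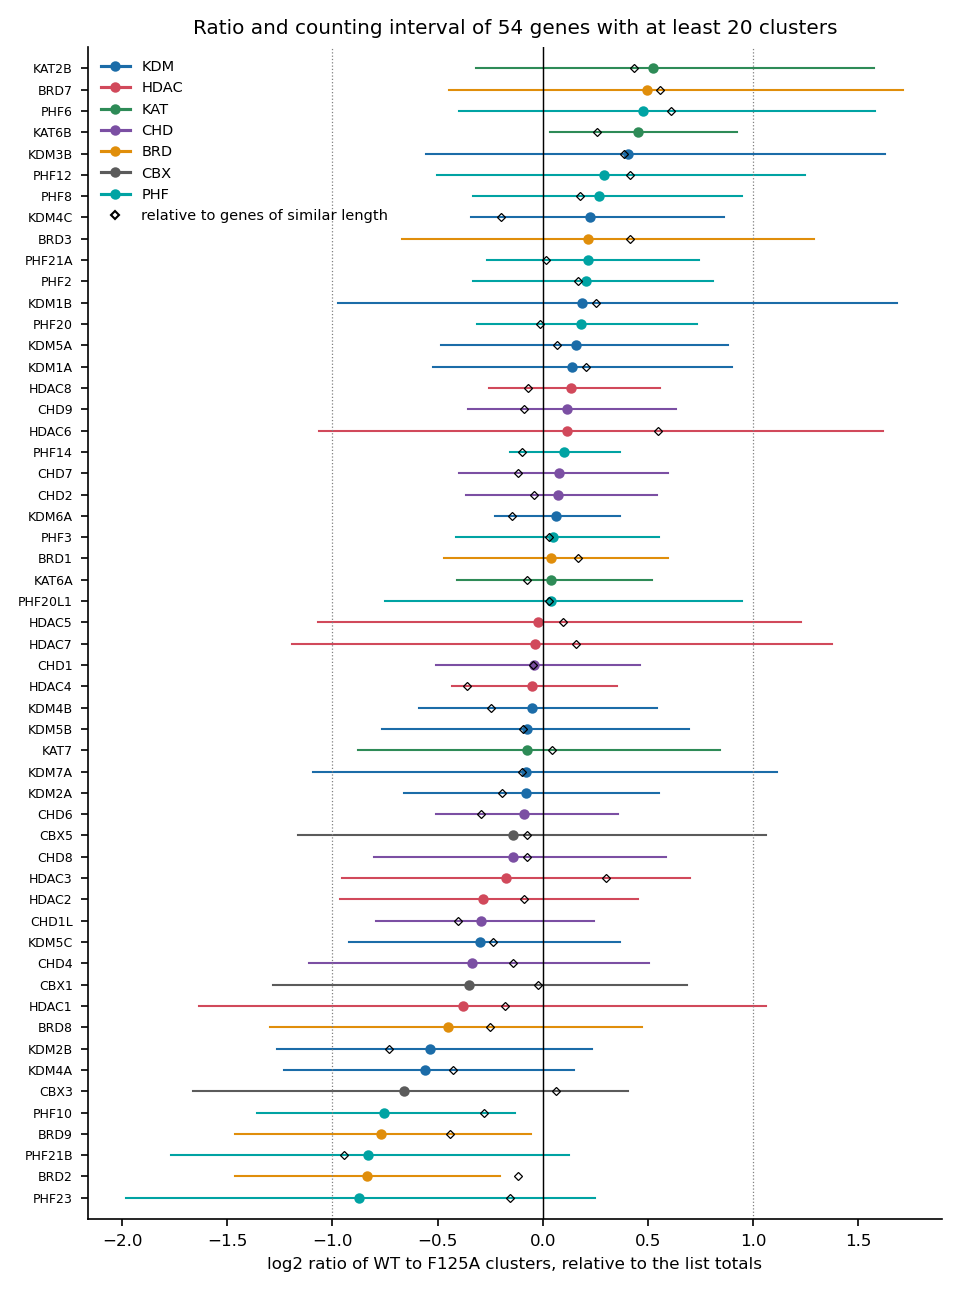
Log2 ratio of WT to F125A clusters relative to the list totals for 54 of the 56 genes with at least 20 clusters (points, coloured by family), with exact binomial counting intervals (lines) and the ratio relative to genes of similar length (open diamonds); dotted lines mark 2-fold. The points run from -0.88 for PHF23 to 0.52 for KAT2B, all within the dotted lines.

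Of the demethylases, the flavin-dependent pair KDM1A (LSD1) and KDM1B lay slightly above 0. KDM1A had 57 WT and 26 F125A clusters (0.14, interval -0.52 to 0.90) and KDM1B 19 and 8 (0.19, -0.97 to 1.69). In KDM1B 5 of 8 F125A clusters overlapped a WT cluster (62.5%), beside a median of 88.3% for the 56 genes. A share of 8 clusters is imprecise, and no interval was computed for it.

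The JmjC demethylases, which use iron and oxoglutarate, comprised 17 genes with a cluster, among them PHF2 and PHF8. They had 1010 WT and 508 F125A clusters, and of the 13 tested, 6 lay above and 7 below 0 (median -0.05, interval -0.30 to 0.23). KDM6A stood at 0.06 (interval -0.23 to 0.37), which is the balance of the lists within a narrow interval. Its paralogue KDM6B, with 20.6 kb against 240 kb, had 7 clusters in each list. The related KDM4 enzymes, which act on lysines 9 and 36 of histone H3, differed in density: KDM4A, 55.4 kb long, had 44 WT and 33 F125A clusters (79.5 and 59.6 per 100 kb), KDM4B 80 and 42 (43.4 and 22.8), and KDM4C, the longest at 455 kb, 81 and 35 (17.8 and 7.70). Their ratios were -0.56 (-1.23 to 0.15), -0.05 (-0.59 to 0.54) and 0.23 (-0.34 to 0.86), in the order of their lengths and with overlapping intervals. KDM3B had 30 and 11 (0.41, -0.55 to 1.63). KDM3A, with 14 WT and 2 F125A clusters, was under the minimum for a ratio.

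Among the deacetylases, few genes held most clusters. HDAC8 and HDAC4 together account for most of the 497 WT and 261 F125A clusters of the 11 genes. HDAC8 had a ratio of 0.14 (interval -0.25 to 0.56) and HDAC4, a class IIa enzyme of 353 kb on chromosome 2 with 161 and 85 clusters, -0.05 (-0.43 to 0.36). HDAC2 had 47 and 29 (-0.28, -0.96 to 0.45) and HDAC3, the deacetylase of the NCoR complex, 37 and 21 (-0.17, -0.96 to 0.70). Class IIa genes differed widely per length: HDAC4, HDAC5 and HDAC7 had 45.5, 46.9 and 46.6 WT clusters per 100 kb, and HDAC9 had 7 clusters in 916 kb. HDAC6, a mainly cytoplasmic tubulin deacetylase, had 18 and 8 (0.12, -1.07 to 1.62), and 5 of its 8 F125A clusters had a WT partner.

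The acetyltransferases lay highest of the families, with 386 WT and 168 F125A clusters. Of the 4 tested, 3 lay above 0, with a median of 0.25. KAT6B, a MYST enzyme also known as MORF (chromosome 10, 74824936 to 75032624), had 162 and 60 (0.46, interval 0.03 to 0.92), or 78.0 and 28.9 per 100 kb. Its paralogue KAT6A (MOZ) had 121 and 60 (0.04, -0.41 to 0.52), or 98.8 and 49 per 100 kb. The numbers of F125A clusters were thus the same and those of WT differed, and the intervals of the ratios overlap. Of KAT6B's WT clusters 36.4% overlapped an F125A cluster, whereas 95% of its 60 F125A clusters overlapped a WT cluster. KAT2B, known as PCAF, had the highest ratio of the 56 genes, from 41 and 14 clusters (0.52, -0.32 to 1.58). Its paralogue KAT2A, known as GCN5, had 5 and 7 and was not tested. KAT2A and HDAC10 (3 and 5) were the 2 genes with more F125A than WT clusters.

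The CHD remodellers spanned the narrowest range of ratios of the 7 families. Their 10 genes had 769 WT and 408 F125A clusters, and the ratios of the 8 tested ranged from -0.34 to 0.12, with 3 above and 5 below 0. CHD6 had 131 and 71 (-0.09, interval -0.51 to 0.36), CHD2 128 and 62 (0.07, -0.37 to 0.54) and CHD9 111 and 52 (0.12, -0.36 to 0.64). Per length, CHD1 was the densest with 143 and 74.6 per 100 kb, and CHD5, which is 78.5 kb long, had 1 cluster in each list.

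Bromodomain genes had the highest median density, 134 WT and 70.1 F125A clusters per 100 kb over 7 genes without BRD3OS. BRD1 had 93 and 46 (0.04, interval -0.47 to 0.60). BRD2 (chromosome 6, 32968594 to 32981505), with a shared and a WT-only place printed above, had 47 and 43 (-0.84, -1.46 to -0.20). BRD9 had 39 and 34 (-0.77, -1.47 to -0.06). BRD7 lay on the other side, with 32 and 11 (0.50, -0.45 to 1.71).

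Chromodomain CBX genes had few clusters and shared most of them. The 8 genes are between 4.95 and 49.2 kb long and had 103 WT and 69 F125A clusters. The genes of the heterochromatin proteins lay below 0: CBX1 (25 and 16, -0.35, interval -1.28 to 0.68), CBX3 (20 and 16, -0.66, -1.66 to 0.40) and CBX5 (22 and 12, -0.14, -1.17 to 1.06). None of these 3 intervals excluded 0. Relative to genes of similar length they lay at -0.02, 0.06 and -0.08, with CBX3 on the other side of 0. Of the family's 69 F125A clusters, 67 overlapped a WT cluster (97.1%, exact interval 89.9 to 99.6%), and 67.0% of its WT clusters overlapped an F125A cluster (57 to 75.9%). In genes outside the families described here these shares were 85.3% and 44.7%. Short genes of other families differed in the WT share, with 81.2% in PHF23, 80.9% in BRD2 and 27.8% in HDAC6. The shares were not compared with those of genes of similar length, so they are not shown to be particular to CBX genes.

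The PHF genes included the gene with most clusters, PHF14, and the lowest ratio, that of PHF23. With 1105 WT and 542 F125A clusters in 17 genes, 9 of the 12 tested lay above 0 and 3 below. PHF14 had a ratio of 0.10 (interval -0.16 to 0.37), PHF3 (114 and 56) 0.05 (-0.41 to 0.55) and PHF21A (112 and 49), a component of the LSD1 complex, 0.21 (-0.27 to 0.75). PHF6 had 37 and 13 (0.48, -0.40 to 1.58) and PHF12 42 and 17 (0.29, -0.50 to 1.25). The 3 below 0 were PHF23 (16 and 15, -0.88, -1.98 to 0.25), PHF21B (22 and 20, -0.83, -1.77 to 0.12) and PHF10 (51 and 44, -0.75, -1.36 to -0.13). PHF5A, the SF3b subunit, had 8 and 4 and was not tested.

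The ratio went with gene length in these genes as it did in all genes. Gene length and the ratio had a Spearman's rho of 0.46 over the 56 genes and 0.57 over all 5626, as a description across genes that share their libraries. The 18 shortest of the 56 genes, 5.79 to 46.9 kb, had a median of -0.34, with 15 below 0. The 18 longest, 123 to 455 kb, had a median of 0.07, with 7 below 0.

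After the median of genes of similar length was subtracted, the 56 genes had a median of -0.07, with 23 above and 33 below 0. None of the 56 lay 2-fold or more toward WT (background 2.04%) or toward F125A (background 0.462%). BRD2 moved from -0.84 to -0.12, above its counting interval, PHF23 from -0.88 to -0.15 and PHF10 to -0.28. KAT6B moved to 0.26 and KDM4C went from 0.23 to -0.20. PHF21B, which is 129 kb long, did not follow the trend: it lay at -0.94 relative to genes of similar length, the lowest of the 56. KDM2B, 174 kb long with 38 and 28 clusters (-0.54, interval -1.26 to 0.24), was next at -0.73. On this scale the 8 tested CHD genes lay between -0.40 for CHD1L and -0.04 for CHD2, with CHD1 at -0.05 and CHD8 at -0.08. All 8 were below 0, as were 2782 of all 5626 tested genes.

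**Figure D4:**
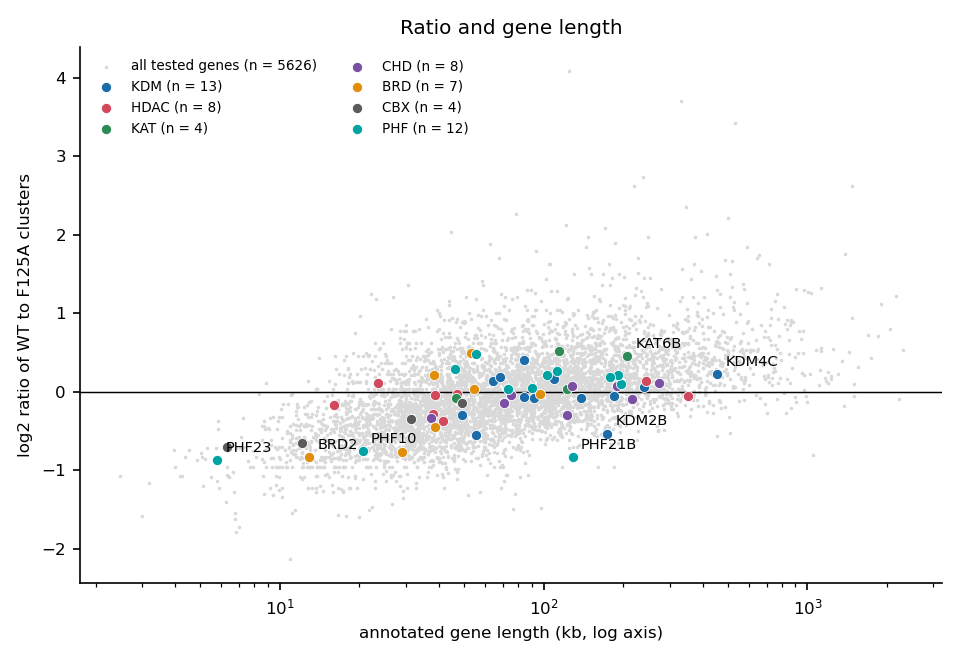
Log2 ratio of WT to F125A clusters against annotated gene length (log axis) for the 56 genes (coloured by family) and all 5626 tested genes (grey). The coloured points lie within the grey cloud and rise with length, from PHF23 at 5.79 kb to KDM4C at 455 kb, with PHF21B and KDM2B low for their length.

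Most F125A places in these genes were also WT places. Of the 2156 F125A clusters, 1876 shared at least 1 nt, on the same strand, with a WT cluster (87.0%, exact interval 85.5 to 88.4%), beside 85.3% in all other genes (85.1 to 85.4%). Of the 4188 WT clusters, 1948 overlapped an F125A cluster (46.5%, 45.0 to 48.0%), beside 44.7% in all other genes (44.5 to 44.9%). These intervals treat clusters as independent, although neighbouring clusters of a gene share their transcript. By gene, the median share was 88.3% for F125A and 46.5% for WT over the 56 tested genes, and 85.7% and 44.9% over all tested genes.

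Among the 56 tested genes, WT clusters often had a partner in PHF23 (81.2%) and BRD2 (80.9%), which are short and densely covered. They least often had one in BRD7 (21.9%). F125A clusters least often had a partner in PHF21B, where 8 of 20 had none (60.0% overlapping), followed by KDM1B and HDAC6. KDM1B and HDAC6 had 8 F125A clusters each, so their rank is imprecise. In PHF14 209 of 381 WT clusters had no F125A partner, in KDM6A 148 of 288 and in KAT6B 103 of 162. The share with a partner was thus 45.1% in PHF14, 48.6% in KDM6A and 36.4% in KAT6B. In genes outside the families described here it was 44.7%, so PHF14 and KDM6A did not lie below this background. The F125A list is shorter, so a WT cluster without a partner is not shown to be lost with F125A.

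Clusters without a partner sometimes lay in a row. In HDAC8, 13 WT clusters in a row spanned 22.8 kb (chromosome X, 72501900 to 72524734) with no F125A cluster between them. In CHD9 there were 10 in 35.1 kb (chromosome 16, 53208715 to 53243804), in KAT6B 10 in 16.7 kb and in PHF3 10 in 5.27 kb (chromosome 6, 63686997 to 63692270), again with no F125A cluster. The longest such row, 15 in CHD1 over 11.3 kb, held 1 F125A cluster that touched none of them. These genes and spans were named after their values were seen. Such rows were not counted in other genes, where 44.7% of WT clusters had a partner, so they have no background.

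In some genes the stretch densest in WT clusters also held many F125A clusters. The windows were chosen by their WT clusters alone. The 5 kb window with most WT clusters held 27 WT and 24 F125A clusters in BRD2 (chromosome 6, 32969091 to 32974090), which is 57.4% of the gene's WT clusters in 38.7% of its length. It held 27 and 16 in PHF14 (chromosome 7, 11065814 to 11070813), 94.4 kb from the gene start, and 21 and 17 in KDM6A, 24.8 kb from the start. In other genes this window held few F125A clusters, for example 8 and 2 in KDM4C and 8 and 1 in KDM3B. In PHF2, a JmjC protein, 16 WT clusters with gaps under 50 nt followed one another over 1457 nt (chromosome 9, 93661348 to 93662804), and 11 F125A clusters lay in the same stretch. In BRD9 the longest such chain held 14 WT clusters over 1124 nt and 12 F125A clusters (chromosome 5, 882175 to 883298). In HDAC4 it held 12 WT clusters over 1124 nt and 7 F125A clusters (chromosome 2, 239345535 to 239346658). These stretches, too, were chosen for their values and are given as a description.

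**Figure D5:**
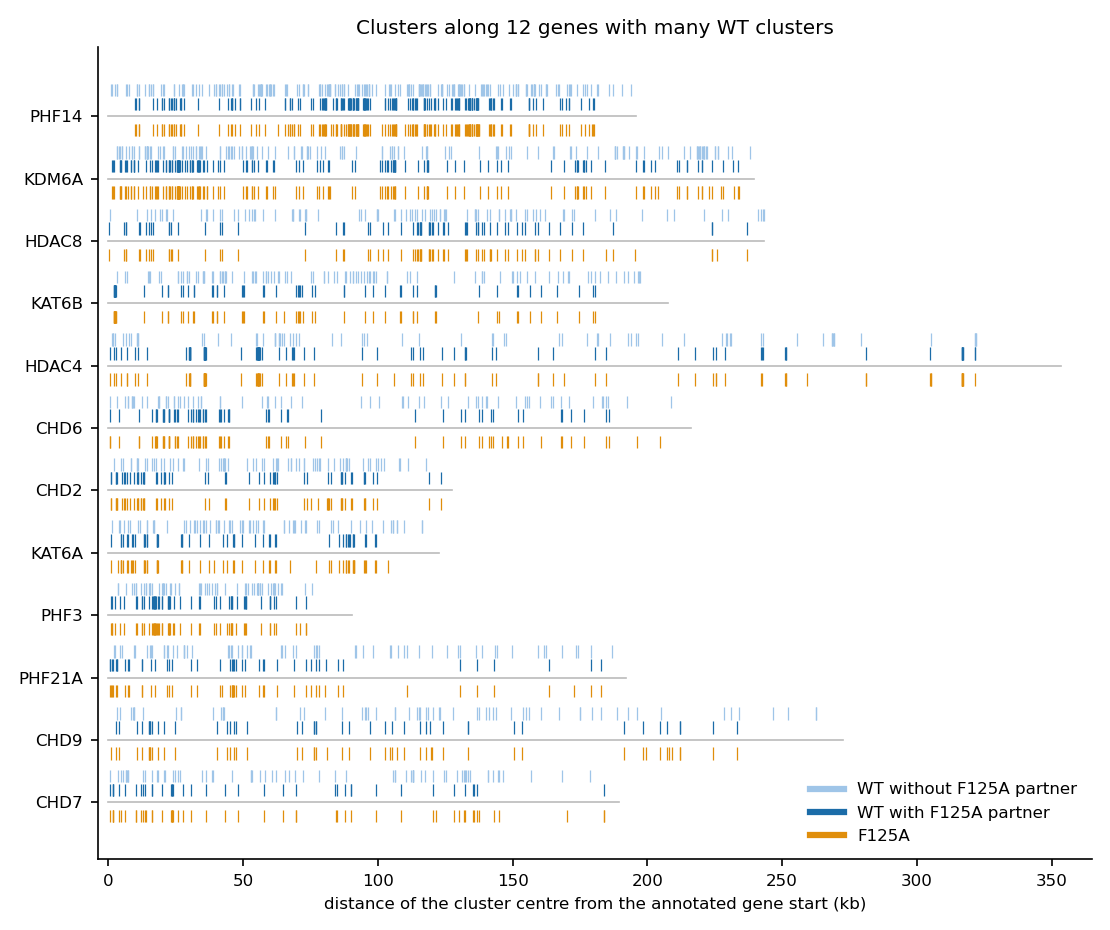
Position of every cluster along 12 genes with many WT clusters, as distance of the cluster centre from the annotated gene start (kb); each gene is a grey line of its length, with WT clusters above it (pale where no F125A cluster overlaps, dark where one does) and F125A clusters below. The orange marks largely repeat the dark blue pattern, and PHF14 is filled along nearly its whole length.

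Clusters were somewhat more frequent toward the start of the gene. The first 10% of gene length held 625 WT clusters of the 79 genes (14.9%, exact interval 13.9 to 16.0%) and 375 F125A clusters (17.4%, 15.8 to 19.1%), beside 13.9% and 15.7% in all other genes. The last 10% held 4.01% and 4.13%, beside 4.57% in each list for other genes. Within 1 kb of the gene start lay 2.10% of WT (1.69 to 2.58%) and 3.57% of F125A clusters (2.83 to 4.44%), beside 1.96% and 3.37% in other genes. Genes differed in this: KDM5B, a demethylase of lysine 4, had 26.5% of 49 WT and 46.2% of 26 F125A clusters in the first 10%, and CHD1L none in either list. PHF14 had 6.30% and 3.30% there and its median cluster stood near the middle of the gene, at 49% of its length with WT and 52.2% with F125A.

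Clusters of the 79 genes were about as long as others. With WT the median was 61 nt, with quartiles of 48 and 78 nt. With F125A it was 65 nt, with quartiles of 51 and 85 nt, beside 60 and 64 nt in other genes. WT clusters with an F125A partner had a median of 65 nt and those without 58 nt, and F125A clusters with a WT partner 64 nt and those without 69 nt. Clusters over 100 nt made up 8.95% of WT (8.11 to 9.86%) and 13.7% of F125A clusters (12.3 to 15.2%), beside 7.72% and 11.4% in other genes. The longest WT cluster, of 215 nt, lay in KDM5A (chromosome 12, 377201 to 377415) and overlapped an F125A cluster. The longest F125A cluster, of 218 nt, lay in HDAC2 (chromosome 6, 113959940 to 113960157) and overlapped none. In HDAC4 a place 55.3 kb from the start was long in both lists, at 212 nt with WT and 215 nt with F125A.

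The bounds of these genes hold 8 annotated microRNA hairpins on the same strand, in HDAC4, KDM5C, CBX5, CHD2 and KDM2B. No cluster of the host gene touched any of them. The nearest lay 145 nt away, a WT cluster beside MIR6895 in KDM5C, and the hairpins with the largest gap were MIR3198-2 in CBX5, 20854 nt from a WT cluster, and MIR4440 in HDAC4, 10831 nt from one.

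Other genes of the same pathways were listed by function and not by name. All of 20 other acetyltransferase genes had clusters, and the 15 tested had a median of 0.06, with 8 higher and 7 lower than 0. The coactivator genes NCOA2 (179 and 76, 0.26) and NCOA1 (121 and 37, 0.72, interval 0.20 to 1.32) and JADE3, of the HBO1 complex (115 and 66, -0.17), had the most. Of 23 deacetylase partners and sirtuins, clusters were found in 22. The median of the 19 tested was -0.25 (interval -0.39 to 0.16), with 6 higher and 13 lower than 0. TBL1XR1, a corepressor subunit, had 220 and 115 (-0.03) and TBL1X 151 and 99 (-0.36, -0.73 to 0.03). Of 28 other reader genes, the 27 tested had a median of -0.05, with 10 higher and 17 lower than 0. MLLT10 had 351 and 192 (-0.10), MLLT3 318 and 134 (0.28) and PHIP 271 and 177 (-0.35, -0.63 to -0.07). Of 6 other JmjC genes 4 had clusters and 1 was tested. This gene, JMJD1C, had 360 and 168 (0.13, -0.13 to 0.41), more WT clusters than any of the 79 genes but PHF14, whereas RIOX2 (8 and 5) and JMJD6 (3 and 2) had few. In these lists MBD3 (29 and 32, -1.10) and MLLT6 (15 and 16, -1.05), singled out for their values, were 2-fold or more toward F125A and none toward WT. They are 1 of 19 and 1 of 27 tested genes of their lists, beside 1.99% of all tested genes. These genes are 19.3 and 24.5 kb long, and relative to genes of similar length both lay at -0.62.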

How the data were processed

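The samples were grouped by the genotype in their titles. Per the labels' protocols, inserts of 20 to 80 nt were selected and primers carried identifiers of 4 nt. The tools cutadapt and STAR and the build hg38 are named in the submitters' processing notes. Their versions, the cluster caller, its threshold and the pooling of libraries are not given in the sources used here. Both lists the authors deposited give, per the file headers, chromosome, start, end, gene, region and strand, and no score or read count. Starts were read as 0-based.

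Repeated rows were dropped (164 WT and 78 F125A rows of the 79 genes). All 79 names matched RefSeq's GRCh38.p14 table, which gave bounds and lengths, and every one of their clusters lay inside those bounds. Ratios used Python 3.11.15 and SciPy 1.17.1, with 1 added and at least 20 clusters required. Similar length means the same of 20 bins. Intervals are exact binomial, or order statistics for medians. No p-value was computed, since each group is 1 list. The statistics were tested on simulated data.

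The genes and lists were chosen with earlier results of these data known. Genes were named by rule: most clusters overall and per family, extreme ratios, densities and overlaps, and genes in 1 list only. No per-sample column was left unused. Some cluster sequences on 1 chromosome, and the values of some genes, are not reported here.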

Additional observations from a re-analysis of the deposited data

How the results depend on the processing

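No paired analysis was possible because each group has 1 list without columns of replicates, and for the same reason no library could be left out. The median ratio of the 56 genes moved from -0.03 to -0.10 with 5 added to each count, and stayed within its interval under the other 5 settings. With at least 10 clusters, 69 genes were tested and 1 lay 2-fold or more toward WT (KDM3A, 1.36) and 1 toward F125A (KAT2A, -1.38). With clusters closer than 50 nt merged, 53 were tested and 1 lay there toward F125A (PHF21B, 16 and 17, -1.0). Merging also raised the median cluster length to 65 nt in the WT and 68 nt in the F125A list, by construction. The share of WT clusters with a partner was 44.9% when the overlap covered at least 50% of the shorter cluster, and 41.7% for at least 50% of both, where that of F125A clusters was 81.1%. Of the ratios of 33 named genes, BRD2 alone left its counting interval, relative to genes of similar length (-0.12). Without the 5433 rows that are identical in both lists, none of which belongs to the 79 genes, no count of these genes changed.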

Other observations

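A further 4 clusters in each list name KAT14 together with PET117. Their coordinates do not differ between the lists. Whether they belong to the 5433 rows that are identical in both lists was not checked, so the match is no result about KAT14. They were left out, because the gene field is not a single name. BRD10 is listed under its older name KIAA2026, with 27 WT and 9 F125A clusters, and so is not among the 79 genes.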
